A study of Mus musculus with 4 samples.

Results

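The synaptic adhesion genes described here are 2 neurexin genes (Nrxn2 and Nrxn3), 3 neuroligin genes (Nlgn1, Nlgn2 and Nlgn3) and 4 genes of the leucine-rich repeat transmembrane family (Lrrtm1, Lrrtm2, Lrrtm3 and Lrrtm4). They were chosen by name, not by their values, and are 9 of the 52636 genes of the deposited tables. The study immunoprecipitated RNA from mouse hippocampus with an anti-YTHDF2 antibody, to find the mRNAs that this cytoplasmic reader of N6-methyladenosine (m6A) binds. Its 4 samples are 2 input libraries and 2 immunoprecipitated libraries. The immunoprecipitated libraries were not analysed here, so no binding to YTHDF2 is reported. The input group is RNA of whole hippocampal lysate from C57BL/6 mice labelled WT at postnatal day 40, extracted with Trizol without immunoprecipitation. The labels name no treatment, transgene or sex for this group and do not say whether tissue of several animals was pooled. They also do not say whether the 2 input libraries came from different animals, so every SD below may be technical. With 1 group of 2 libraries no groups were tested against each other, and no p-values are given.

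Neurexins sit on the presynaptic membrane and bind, across the cleft, to neuroligins and LRRTM proteins on the postsynaptic membrane. Each neurexin gene makes long alpha and short beta proteins from separate start sites, with extensive alternative splicing that changes which partners can bind. Neuroligin 1 is found mainly at excitatory synapses, neuroligin 2 at inhibitory synapses and neuroligin 3 at both, while LRRTM proteins act at excitatory synapses.

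All 9 genes were detected in both input libraries, with at least 80 counts in each. By FPKM, a level per unit of transcript length, Nrxn2, Nlgn2, Nrxn3 and Nlgn3 formed the upper end, Lrrtm1 lay in the middle, and Nlgn1, Lrrtm2, Lrrtm3 and Lrrtm4 formed the lower end. The genes of a family were far from equal: Nlgn2 exceeded Nlgn1 by 6.84 times in one library and 4.03 times in the other, and Lrrtm1 exceeded Lrrtm2 by 3.41 and 3.57 times (FPKM). With the longest transcript as the length, Lrrtm1 exceeded Lrrtm2 by 2.53 and 2.66 times. None of the 9 genes differed 2-fold between the libraries, and the widest difference was that of Nlgn1.

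The column names do not tell which replicate is which, so the libraries are called shallower (2563069 counts) and deeper (3334451 counts). Levels are given as CPM, counts scaled to a fixed library total, and as the authors' FPKM, which also divides by a length per gene, so that only FPKM allows a comparison between genes. A count of 0 would allow up to 3 counts, or 1.17 CPM for the shallower library and 0.900 CPM for the deeper. Over 12504 genes counted at least 10 times in each library, chi-square per degree of freedom between the libraries was 11.6, where counting error alone gives about 1, so intervals of counting error understate the spread between libraries. Markers of the labelled tissue were present: the dentate granule gene Prox1 had 542 counts in the shallower and 758 in the deeper library. On the list of pyramidal genes, Fibcd1 had 486 and 533, Wfs1 359 and 420, Neurod6 276 and 458, and Slc17a7 3649 and 3774. Of the listed genes of other brain regions, the cerebellar genes Pcp2 and Gabra6 had 0 counts in both. The others on that list were found at low counts: Tcf7l2 had 22 and 29, Drd1 12 and 19, and Drd2 6 and 0. Oligodendrocyte markers (Mbp, Mog and Mobp) summed to 1742 ± 37.2 CPM (SD, n = 2), most of it from Mbp at 1546 ± 75.1 CPM. Interneuron markers (Gad1, Gad2, Sst and Pvalb) summed to 418 ± 1.81 CPM, of which Pvalb, with 5 and 10 counts, averaged only 2.47 CPM. By CPM, Mbp and Gad2 were higher in the deeper library, and Mog, Mobp, Gad1 and Sst were lower. The SDs of the sums thus do not show the spread of single markers. The libraries hold RNA of many cell types. In such bulk RNA, fewer cells of a type and less RNA per cell cannot be told apart.

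The proteins of these genes end inside the cell in a short tail, which in neurexins and neuroligins binds PDZ domains of scaffold proteins. The last 60 bases of the coding region are shown for 8 of the 9 genes, to let the families be compared where they meet those scaffolds, with the last 4 codons before the stop codon in capitals. The Lrrtm2 sequence is not shown here, and Lrrtm2 has no part in the comparison of these ends. The sequences were read 5′ to 3′ from GENCODE M21 transcripts on GRCm38. Each is the end of the transcript with the longest coding region, and for Nrxn2 7 of 8 and for Nrxn3 5 of 5 coding transcripts share it. All coding transcripts of Nlgn1 (4), Nlgn2 (2), Nlgn3 (3), Lrrtm1 (2) and Lrrtm3 (1) have the end shown. Lrrtm4 has 6 coding transcripts, of which 3 end in a far exon and 3 end in an exon upstream of it, so both ends are given.
Nrxn2 (chr19:6532089-6532148, plus strand): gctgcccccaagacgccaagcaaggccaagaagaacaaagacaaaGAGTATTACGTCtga
Nrxn3 (chr12:90332351-90332410, plus strand): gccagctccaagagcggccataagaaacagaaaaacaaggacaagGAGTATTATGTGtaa
Nlgn1 (chr3:25433638-25433697, minus strand): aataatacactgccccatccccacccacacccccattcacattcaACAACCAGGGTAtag
Nlgn2 (chr11:69825203-69825262, minus strand): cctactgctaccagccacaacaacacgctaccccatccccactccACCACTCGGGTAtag
Nlgn3 (chrX:101320203-101320262, plus strand): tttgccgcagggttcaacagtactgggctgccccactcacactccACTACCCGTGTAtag
Lrrtm1 (chr6:77245071-77245130, plus strand): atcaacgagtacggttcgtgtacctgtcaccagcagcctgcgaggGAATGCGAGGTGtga
Lrrtm3 (chr10:63930058-63930117, minus strand): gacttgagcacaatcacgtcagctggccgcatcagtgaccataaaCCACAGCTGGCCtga
Lrrtm4, far end (chr6:80809130-80809189, plus strand): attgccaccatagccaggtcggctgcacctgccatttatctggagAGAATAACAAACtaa
Lrrtm4, near end (chr6:80023107-80023166, plus strand): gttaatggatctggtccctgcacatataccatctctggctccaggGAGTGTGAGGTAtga

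Within the neurexins, 38 of the 60 bases were identical, including 10 of the 12 capital bases. The 3 neuroligin ends had 9 of the 12 capital bases identical in each pair, and 31 to 36 of the 60. The near end of Lrrtm4 had 9 of the 12 capital bases, and 32 of the 60, in common with Lrrtm1. The far end had only 1 of the 12 in common with Lrrtm1 and 2 of the 12 in common with Lrrtm3. Over whole coding regions, aligned bases were 70.4% identical between the neurexins, 68.6% to 72.3% between neuroligins and 62.1% to 67.7% between LRRTM genes. The counts per gene are sums over all of a gene's transcripts, so alpha and beta neurexins, and the Lrrtm4 forms with either end, are not separated in any value below.

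YTHDF2 recognises m6A, which lies most often in a short consensus and close to stop codons. The window of 30 bases around the GGACT copy nearest to the stop codon is therefore shown for the same 8 genes, with GGACT, a common form of that consensus, in capitals. Only the sense strand of the transcript was searched, since the mark is on RNA, and positions are counted from the last base of the stop codon to the A of the motif, negative inside the coding region. A match is a stretch of letters and not a measured m6A site.
Nrxn2 (chr19:6531536-6531565, plus strand): cacggacgacgaGGACTtttacactacttt
Nrxn3 (chr12:90331843-90331872, plus strand): gtgggaatccaaGGACTttagacctaacaa
Nlgn1 (chr3:25434083-25434112, minus strand): ggtggatcagagGGACTactccacagagct
Nlgn2 (chr11:69825120-69825149, minus strand): aggcagggaggaGGACTtggcaccgggctt
Nlgn3 (chrX:101320785-101320814, plus strand): gctctggctctgGGACTcccaatgttcata
Lrrtm1 (chr6:77245189-77245218, plus strand): cagcgggcaccaGGACTggtctcctctgcg
Lrrtm3 (chr10:63930101-63930130, minus strand): agagactgagctGGACTtgagcacaatcac
Lrrtm4 (chr6:80023055-80023084, plus strand): ggaatactacgtGGACTacaaaccgacgaa

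GGACT lay within 200 bases of the stop codon, on either side, in 3 of the 9 genes (33.3%). These were Nlgn2 at position 68, Lrrtm1 at position 73 and Lrrtm3 at position -58. The share was 38.7% of 16876 protein-coding genes with a full window and 40.7% of the 9335 among them that averaged at least 5 CPM. GGACA and GGACC, searched in the same way and not overlapping GGACT, were each found in 5 of the 9 genes, against 44.4% and 37.2% of all genes. For the other genes shown, the nearest GGACT copy was at -598 in Nrxn2, -553 in Nrxn3, -460 in Nlgn1, 537 in Nlgn3 and -313 in Lrrtm4. Lrrtm2 had 0 copies within 200 bases of its stop codon. The Lrrtm4 position is counted to the far end. In the 3 transcripts with the near end the same copy is at -97, within 200 bases of that stop codon, and counting these transcripts gives 4 of the 9 genes, an alternative added after the data were seen. Whole transcripts held 10 copies in Nlgn2, 8 in each of Nrxn3, Nlgn3 and Lrrtm2, 7 in Nrxn2, 6 in Lrrtm1, 5 in Nlgn1, 2 in Lrrtm3 and 1 in Lrrtm4. The median density was 1.01 copies per kilobase for the 9 genes and 1.02 for 21604 protein-coding genes. Density was highest in Lrrtm1 with 2.36 copies per kilobase and lowest in Lrrtm4 with 0.330. The transcripts also differ in layout: Nlgn1 has a coding region of 2532 bases and a 3′ untranslated region of 7423 bases, whereas Lrrtm1 has 1569 and 387 bases.

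**Figure D1:**
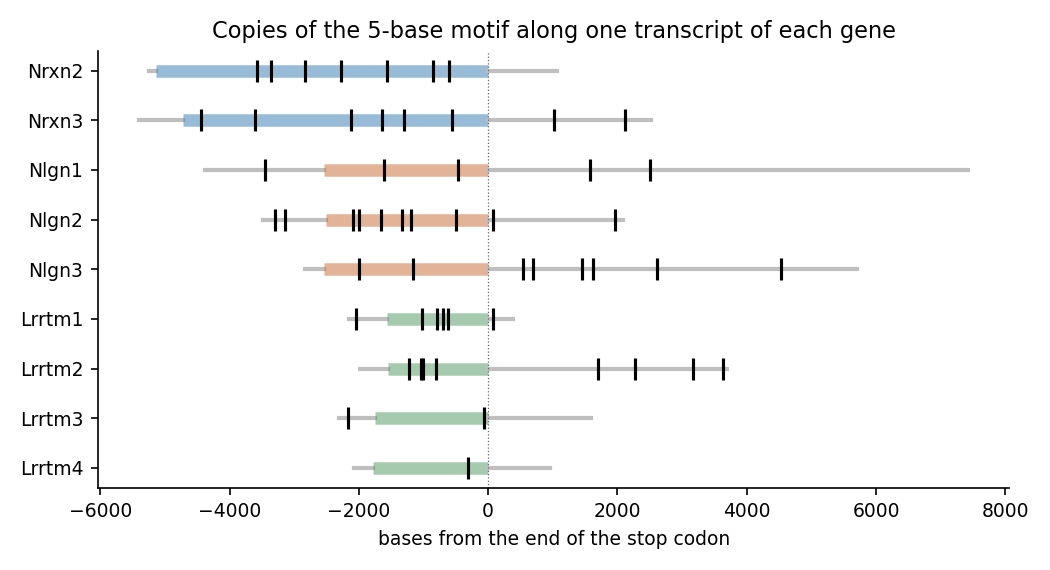
Copies of GGACT along the transcript with the longest coding region of each gene, in bases from the end of the stop codon (x axis). Coloured bars are coding regions (blue neurexin, orange neuroligin, green LRRTM), grey lines untranslated regions and black ticks motif copies. Copies of both neurexins lie mostly in the coding region, 6 of the 8 copies of Nlgn3 lie in the 3′ untranslated region, and Lrrtm4 has 1 copy.

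The neurexin genes were the presynaptic members. Nrxn2 (ENSMUSG00000033768, chr19:6418731-6544169, plus strand, 18 annotated transcripts over 125 kb) had 1363 counts in the shallower and 1253 in the deeper library. These are 532 CPM (95% exact Poisson interval 504 to 561) and 376 CPM (355 to 397), with a mean of 454 ± 110.3 CPM (SD, n = 2). Its FPKM was 179.6 in the shallower and 127 in the deeper library (mean 153 ± 37.3). Nrxn2 was thus higher in the shallower library, and the counting intervals of the libraries did not overlap. Nrxn3 (ENSMUSG00000066392, chr12:88722876-90334935, plus strand) is the longest of the genes, with 13 transcripts over 1.61 Mb. It had 828 and 1018 counts, which are 323 CPM (301 to 346) and 305 CPM (287 to 325), or 96.6 and 91.3 FPKM (mean 94.0 ± 3.75). Its 2 libraries differed by less than counting error. Nrxn2 exceeded Nrxn3 by 1.86 times in the shallower and 1.39 times in the deeper library (FPKM). Among 14815 detected protein-coding genes, whose median was 7.997 FPKM, Nrxn2 stood at the 97.7th and Nrxn3 at the 95.4th percentile. RefSeq lists 3 start sites of Nrxn3, of which the last lies 1090 kb downstream of the GENCODE gene start. The gene counts do not show which of them was used.

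The neuroligin genes encode postsynaptic partners of neurexins with an extracellular domain related to acetylcholinesterase. Nlgn2, the inhibitory-synapse neuroligin, had the highest FPKM of the 3 in both libraries. This gene (ENSMUSG00000051790, chr11:69823122-69837784, minus strand, 14.7 kb) had 939 and 1171 counts, which are 366 CPM (343 to 391) and 351 CPM (331 to 372). Its FPKM was 125 in the shallower and 119.9 in the deeper library (mean 123 ± 3.66), at the 96.9th percentile. The counting intervals of the 2 libraries overlapped. Nlgn3 (ENSMUSG00000031302, chrX:101299168-101325963, plus strand, 26.8 kb), whose protein is found at excitatory and inhibitory synapses, had 977 and 1361 counts. Its level was 381 CPM (358 to 406) and 408 CPM (387 to 430), or 81.0 and 86.7 FPKM (mean 83.8 ± 4.05). Nlgn2 exceeded Nlgn3 by 1.55 times in the shallower and 1.38 times in the deeper library (FPKM).

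Nlgn1 (ENSMUSG00000063887, chr3:25426215-26332460, minus strand, 906 kb), the neuroligin of excitatory synapses, was the lowest of the 3 in both libraries. It had 251 counts in the shallower and 531 in the deeper library, which are 97.9 CPM (86.2 to 111) and 159 CPM (146 to 173). Its FPKM was 18.3 and 29.7 (mean 24.0 ± 8.10), at the 77.4th percentile of detected protein-coding genes. The counting intervals did not overlap, and Nlgn1 was higher in the deeper library. Nlgn3 exceeded Nlgn1 by 4.43 times in the shallower and 2.92 times in the deeper library, and the order Nlgn2, Nlgn3, Nlgn1 was the same in both. That order also held with the longest transcript or the union of all exons as the length, where Nlgn2 exceeded Nlgn1 by 7.93 and 4.68 times and by 8.68 and 5.12 times.

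Among the LRRTM genes, Lrrtm1 (ENSMUSG00000060780, chr6:77242689-77257791, plus strand, 15.1 kb) had the highest level per length. LRRTM1 binds neurexins at excitatory synapses. Its counts were 226 and 294, which are 88.2 CPM in each library (77.1 to 100.5 and 78.4 to 98.8). Its FPKM was 40.1 in both libraries, at the 86.6th percentile, so the libraries were equal to 3 digits. Lrrtm3 (ENSMUSG00000042846, chr10:63928472-64090277, minus strand, 162 kb) had the fewest counts of the 9 genes, 80 and 87. They are 31.2 CPM (24.7 to 38.8) and 26.1 CPM (20.9 to 32.2), or 17.0 and 14.2 FPKM (mean 15.6 ± 1.97). Lrrtm4 (ENSMUSG00000052581, chr6:80018877-80810143, plus strand, 791 kb), whose protein binds heparan sulfate chains and is known from dentate granule cells, had 97 and 116 counts. They are 37.8 CPM (30.7 to 46.2) and 34.8 CPM (28.7 to 41.7), or 14.4 and 13.2 FPKM (mean 13.8 ± 0.821). For all 3 genes the counting intervals of the libraries overlapped. Lrrtm1 exceeded Lrrtm3 by 2.36 and 2.82 times and Lrrtm4 by 2.79 and 3.04 times in the shallower and the deeper library (FPKM).

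Lrrtm2 (ENSMUSG00000071862, chr18:35209003-35215024, minus strand, 6.02 kb), which like LRRTM1 binds neurexins at excitatory synapses, had 171 and 212 counts. They are 66.7 CPM (57.1 to 77.5) and 63.6 CPM (55.3 to 72.7), or 11.8 and 11.2 FPKM (mean 11.5 ± 0.392). The libraries overlapped in their counting intervals. Lrrtm2 had the lowest FPKM of the 9 genes, at the 59.7th percentile of detected protein-coding genes. The place rests on the length by which the authors divided, which was 5665 bases for Lrrtm2, close to its longest transcript of 5673 bases. For 7 of the 9 genes it was within 1 base of the average over the annotated transcripts (GENCODE M21), and Lrrtm2, whose average is 3494 bases, was an exception beside Nrxn2. Divided by the longest transcript, Lrrtm2 stood at 11.5 ± 0.391 CPM per kilobase, above Lrrtm4 (8.19 ± 0.487) and Lrrtm3 (7.35 ± 0.929).

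**Figure D2:**
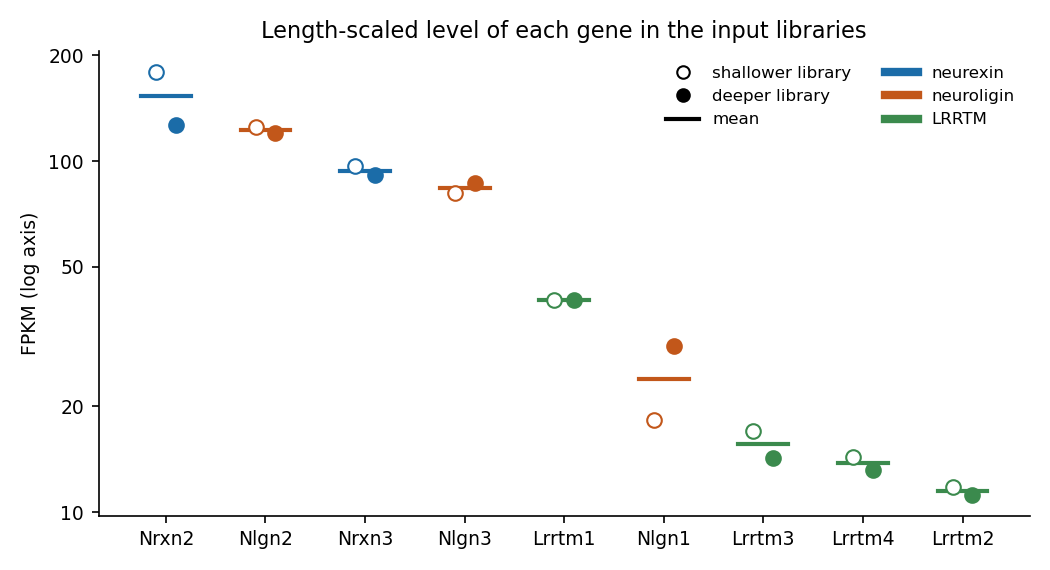
FPKM of each gene (y axis, log scale) in the shallower (open) and the deeper (filled) input library, with the mean as a line and genes ordered by mean. Nrxn2 and Nlgn1 show the widest gaps between the libraries and Lrrtm1 the narrowest, and the lowest value among the 4 genes on the left is 81.0 FPKM.

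By FPKM the order was Nrxn2, Nlgn2, Nrxn3, Nlgn3, Lrrtm1, Nlgn1, Lrrtm3, Lrrtm4 and Lrrtm2. Both libraries of a gene lay above both libraries of the next in this order, except for Lrrtm3 and Lrrtm4, whose ranges overlapped. The widest step between neighbours was from Nlgn3 to Lrrtm1, a ratio of means of 2.09. The order depends on the length used as divisor. With the longest annotated transcript, 5 of the 9 genes changed rank, the ranges of Nrxn2 (68.1 ± 16.5 CPM per kilobase) and Nlgn2 (64.4 ± 1.93) overlapped, and neighbours among the lowest 4 genes overlapped as well. With the union of all annotated exons, all 9 changed rank: Nlgn2 (62.0 ± 1.85) and Nlgn3 (42.6 ± 2.06) then stood above Nrxn2 (32.9 ± 7.99), whose union of 13812 bases is more than 4 times the authors' length of 2961, and Lrrtm1 (29.1 ± 0.00119) stood above Nrxn3 (24.9 ± 0.996). Under all 3 divisors, Nrxn2, Nlgn2, Nrxn3, Nlgn3 and Lrrtm1 were the upper 5 genes and Nlgn1, Lrrtm2, Lrrtm3 and Lrrtm4 the lower 4.

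**Figure D3:**
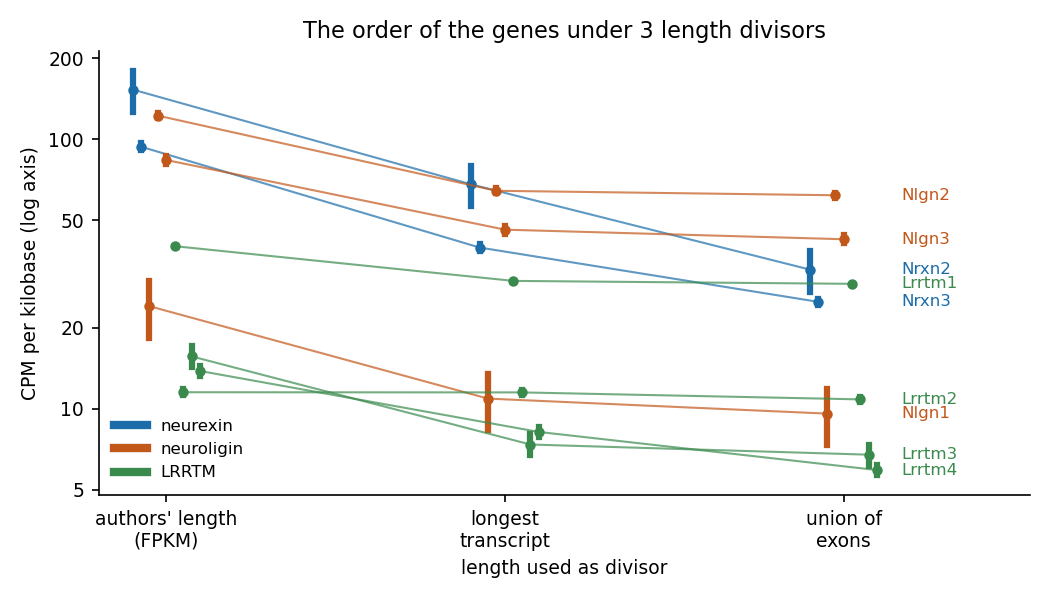
Level of each gene as CPM per kilobase (y axis, log scale) with the authors' length, the longest transcript or the union of exons as divisor (x axis). Points are means, thick bars run from one library to the other, and thin lines join a gene's values. Lines of the upper 5 and the lower 4 genes never cross each other, while Nrxn2 moves from the top to the third place.

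The 2 input libraries were compared gene by gene as log2 ratios, deeper over shallower. For this, 0.5 was added to each CPM and the library totals were multiplied by trimmed mean of M values (TMM) factors, 1.05 for the shallower and 0.951 for the deeper. These factors raise each log2 ratio by about 0.14 over the ratio of plain CPM, so a gene with equal CPM, such as Lrrtm1, has a ratio of 0.14. No gene of the 9 was at least 2-fold apart (0 of 9), against 1164 of 12218 genes that averaged at least 5 CPM (9.53%). The median absolute ratio of the 9 genes was 0.11, against 0.33 for those 12218 genes and 0.26 for genes that averaged at least 20 CPM, a limit that all 9 genes passed. These medians are for TMM scaling, and the genes were not matched for level beyond these limits. With the GC trend described below subtracted, Nlgn2 and the LRRTM genes lay farther from 0. Nrxn2, Nrxn3, Nlgn1 and Nlgn3 then lay closer to 0. The ratio was positive for 7 genes and negative for 2. Nlgn1 had the largest ratio, 0.84 (95% exact binomial interval 0.63 to 1.07), which is 1.79-fold. Nlgn3 was at 0.24 (0.12 to 0.36). These 2 of the 9 genes had an interval above 0, as did 18.6% of the 12218 genes. Nrxn2, at -0.36 (-0.47 to -0.24), was the only 1 of the 9 with an interval below 0, against 17.9% of the 12218 genes. For the other 6 genes the interval included 0, from Lrrtm3 at -0.11 (-0.57 to 0.34) to Lrrtm1 at 0.14 (-0.11 to 0.40). The intervals of Lrrtm3 and Lrrtm4 are the widest, since these genes have the fewest counts.

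The GC content of transcripts moved with the ratio across the whole table. Over 6308 protein-coding genes with at least 20 CPM, the fifth of the genes with the lowest GC content (at most 43.9%) had a median ratio of 0.31 and the fifth with the highest (at least 55.5%) a median of -0.16. Nlgn1 has a GC content of 38.9% and Nrxn2 of 62.4%, and at these values the trend ran in the direction of their ratios. With the trend subtracted, the ratio of Nlgn1 was 0.46 (0.25 to 0.69) and that of Nrxn2 was -0.20 (-0.31 to -0.09), so each kept its sign and was closer to 0. Lrrtm2 and Lrrtm4, with GC contents of 38.4%, had ratios close to 0 at the same end of the GC range: 0.07 and 0.02, and -0.32 (-0.62 to -0.02) and -0.37 (-0.77 to 0.03) after subtraction. Nlgn2 went the other way, from 0.08 to 0.25 (0.12 to 0.37). With the trend subtracted, 5 of the 9 intervals left out 0. The share over all genes was not computed with the trend subtracted, so this count has no table-wide rate beside it. The part of GC content in these differences was not tested beyond this subtraction.

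**Figure D4:**
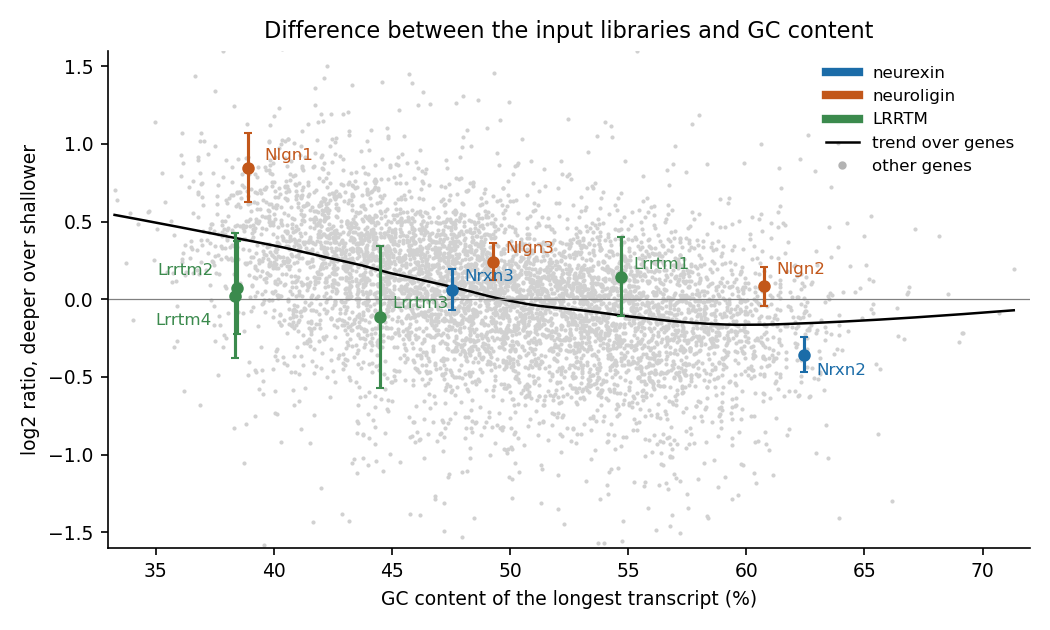
Log2 ratio of deeper over shallower input library (y axis, TMM scaled) against GC content of the longest transcript (x axis, percent), for 6308 protein-coding genes in grey and the 9 genes in colour with 95% counting intervals. The black line is the trend over the grey genes, and a few of these lie outside the plotted range. Nlgn1 lies above the line at low GC content, Lrrtm2, Lrrtm3 and Lrrtm4 below it, and Nrxn2 below it at high GC content.

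Summed over a family, the neurexin genes held 855 CPM (shallower) and 681 CPM (deeper). The 3 neuroligin genes held 845 and 919 CPM, and the 4 LRRTM genes 224 and 213 CPM. The 9 genes together held 0.192% and 0.181% of all counts. Of their counts, 41.0% ± 4.84 fell on neurexins, 47.3% ± 4.77 on neuroligins and 11.7% ± 0.0667 on LRRTM genes (SD, n = 2). Neurexins were ahead of neuroligins in the shallower library (44.4% against 43.9%) and behind in the deeper one (37.6% against 50.7%), so which family had more counts was not settled by these libraries. Per length, the FPKM sums were 247 ± 41.0 for the 2 neurexins, 230 ± 8.48 for the neuroligins and 81.0 ± 3.19 for the LRRTM genes, which are 44.1%, 41.4% and 14.5% of the total. In the deeper library neurexins were behind neuroligins here too, with 218 against 236 FPKM. The shares per length also depended on the divisor. With the longest transcript, neurexins held 37.5% and neuroligins 42.6%, and with the union of exons 25.7% and 50.9%. The LRRTM family was the lowest in both libraries by CPM and by FPKM. With the union of exons it equalled the neurexins to 3 digits in the deeper library, at 51.4 CPM per kilobase.

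The partners of these proteins were described from 10 lists of 57 genes, all matched, of which 47 averaged at least 5 CPM. Among all 21883 nuclear protein-coding genes this share was 47.8%. Among secreted ligands that bind neurexins, 8 of 11 reached 5 CPM and the median was 3.54 FPKM, the lowest median of the lists. C1ql3 and C1ql2, complement-like proteins released by granule cell axons, were the highest with 50.2 and 41.2 FPKM and with 24.2 and 21.6 FPKM in the shallower and the deeper library. They were followed by Nxph1 and Nxph3, which encode neurexophilins that bind alpha-neurexins, with means of 11.2 ± 1.01 and 9.31 ± 2.39 FPKM. Cbln1 and Cbln2, whose cerebellin proteins bridge neurexins to glutamate receptors of the delta type, and Cbln4 lay between 2.96 and 3.78 FPKM on average. Cbln3 had 0 counts in both libraries.

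Of 9 membrane partners, 7 reached 5 CPM, with a median of 21.8 FPKM. Clstn3 (calsyntenin-3) and Adgrl1 (latrophilin-1) had means of 208 ± 35.8 and 190.2 ± 23.7 FPKM. Adgrl3 and Dag1 (dystroglycan) followed with 62.3 ± 2.80 and 56.9 ± 9.36 FPKM. Fam19a1, whose small protein binds neurexins, was the only partner gene averaging at least 5 CPM that was at least 2-fold apart, with 15.0 FPKM in the shallower and 27.5 in the deeper library. Its log2 ratio was 1.01 (0.60 to 1.46). All 6 intracellular partners were detected, led by the adaptor genes Apba2, with 153 and 167 FPKM in the shallower and the deeper library, and Apba1 with a mean of 47.2 ± 5.26, then Lin7c with 44.5 ± 7.40 and Cask with 25.3 ± 2.40 FPKM. The 4 RNA-binding proteins of the splicing list were all detected. Ptbp2 had 60.1 ± 10.1 FPKM, Khdrbs3 36.7 ± 3.38, Khdrbs1 22.6 ± 6.09 and Khdrbs2 5.51 ± 0.504, where the Khdrbs proteins are regulators of an alternative neurexin exon. Of the proteases that cleave these proteins from the membrane, Adam10 was detected (24.4 ± 1.45 FPKM) and Mmp9 had 0 and 2 counts.

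All 7 partners of neuroligins at excitatory synapses were detected, with a median of 65.9 FPKM. Dlg4, which encodes PSD-95, had 578 FPKM in the shallower and 415 in the deeper library, the highest of the 57 genes. Dlg2 (173 ± 15.9 FPKM), the scaffold gene Shank3 (132 ± 2.37) and Magi2 (65.9 ± 2.73) followed. The 3 partners listed for inhibitory synapses were also detected, with a median of 49.0 FPKM. Lhfpl4, which links GABA-A receptors to neuroligin 2, had 58.1 FPKM in the shallower and 49.6 in the deeper library. Iqsec3 had a mean of 49.0 ± 1.01 FPKM and Gphn, the gene of the inhibitory scaffold gephyrin, 29.1 ± 0.591. Mdga1 and Mdga2, whose proteins bind neuroligins and keep neurexins off, had means of 37.8 ± 6.99 and 32.9 ± 6.90 FPKM. Their log2 ratios between the libraries had opposite signs, -0.23 (-0.47 to -0.004) and 0.57 (0.32 to 0.83). Their GC contents were 58.7% and 42.2%, and with the GC trend subtracted the ratios were -0.07 and 0.30. Heparan sulfate proteoglycans, which bind Lrrtm4 protein, reached 5 CPM in 7 of 10 genes. Sdc3 (148 ± 4.76 FPKM), Gpc1 (122 ± 3.69) and Sdc4 (63.8 ± 2.48) were the highest, and Gpc4, a described LRRTM4 ligand, had 11.4 ± 1.75 FPKM.

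**Figure D5:**
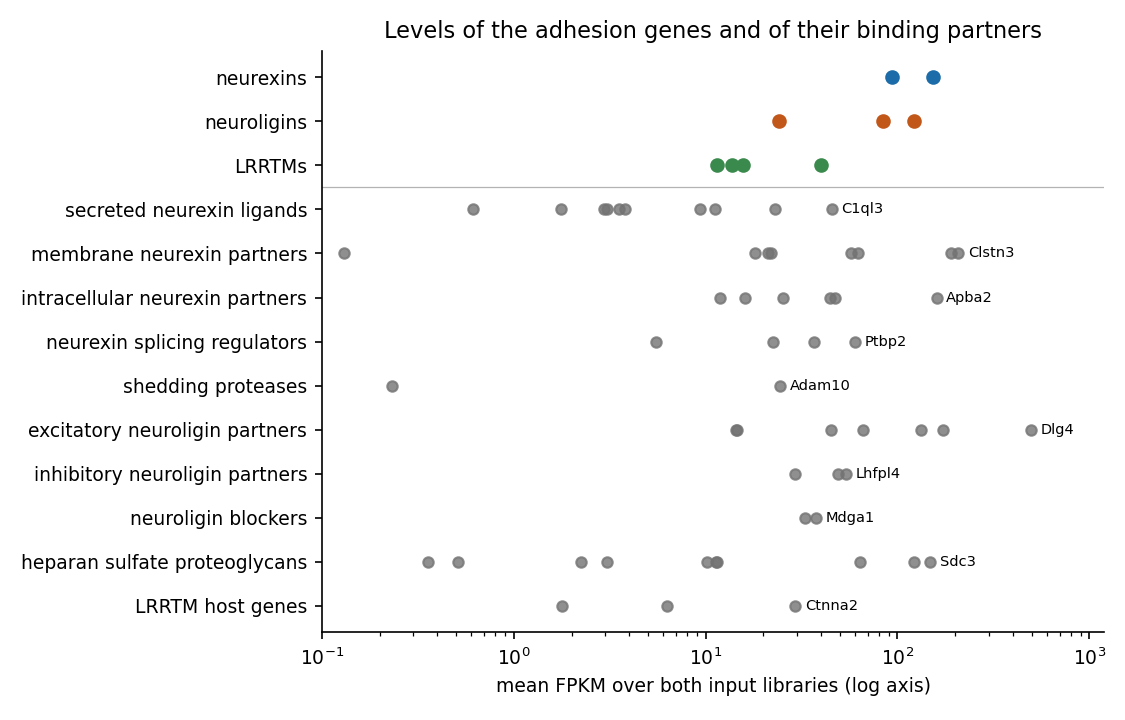
Mean FPKM over both input libraries (x axis, log scale) of the 9 adhesion genes in colour and of 57 partner genes in grey, by list (y axis), with the highest gene of each list named. Cbln3 and Fam19a3 had 0 counts and are not drawn. Secreted ligands lie to the left of most other lists, and Dlg4 lies farthest to the right.

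Of the LRRTM genes, 3 lie within genes of alpha-catenins on the opposite strand. Lrrtm1 lies in an intron of Ctnna2, Lrrtm3 in an intron of Ctnna3, and Lrrtm2 shares 164 exon bases with Ctnna1. Lrrtm1 exceeded its host by 1.38 times in the shallower and 1.36 times in the deeper library (FPKM), with the host at 29.2 and 29.5. Lrrtm2 exceeded Ctnna1 by 1.86 and 1.77 times. Ctnna3 had only 7 and 22 counts, and Lrrtm3 exceeded it by 16.3 and 5.63 times. Each nested gene was thus above its host in both libraries.

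Overlapping genes limit some of these values, since the strand setting of the counting is not given in the sources used here and reads of overlapping genes then cannot be told apart. Nlgn3 shares 3823 exon bases with Gm21986 on the same strand. Of the 31-base stretches of Nlgn3, 41.9% occur in transcripts of other genes, most of all in those of Gm21986. Lrrtm4 shares 1543 exon bases with the antisense gene Gm4409 and Nlgn1 shares 1362 with the antisense gene A830092H15Rik. Gm21986 and Gm4409 had 0 counts in both libraries, and A830092H15Rik had 8 and 0. Nrxn2 shares 1043 exon bases with Slc22a12, which had 4 and 0 counts. How the counting treated reads of the shared bases was not tested. The level of Nlgn3, and so its ratio to Nlgn2 and Nlgn1, carries this limit under every length used as divisor. Of Nlgn2, Lrrtm1 and Lrrtm3, at most 0.327% of the 31-base stretches occur in another gene.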

How the data were processed

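RNA of 2 input libraries was measured. The authors deposited a table of raw counts and a table of FPKM values, each over 52636 Ensembl genes. Per the submitters' processing notes, GRCm38 was the build and BWA 0.7.12, MACS2 2.1.0 and HOMER were among the tools. The counting program, its strand and multi-mapping handling and the gene models were not given in the sources used here. The deposited FPKM equals the count divided by the library total and by 1 whole length per gene, for 100% of 18734 genes with counts in both libraries (tolerance 0.01 bases). Both columns name the input group but not which replicate. Names, positions and sequences came from GENCODE M21 (52489 IDs matched) and start sites from RefSeq (GRCm38.p6), where 6 of the 9 genes had an entry.

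CPM used the total over all genes. Ratios used TMM factors from edgeR 4.0.16 (R 4.3.3) over 12218 genes with at least 5 CPM. The coefficient of variation beyond counting error, which edgeR calls biological, was 0.259 over them. It may be technical, as the labels do not say whether the libraries came from different animals. Exact Poisson and binomial intervals (95%) cover counting error only, and ratio intervals leave out the 0.5 CPM added. The GC trend was a lowess curve (span 0.3, statsmodels 0.14.6). Identity came from global alignments (Biopython 1.88). Motif counts used the protein-coding transcript with the longest coding region. DESeq2 1.42.0 size factors were an alternative. The computation was tested on simulated data. The text names every one of the 9 genes and the highest 4 of each partner list, with others given by count; some genes of the lists are not reported here. Fam19a1, Fam19a3, Cbln1, Cbln2, Cbln3, Cbln4, Mmp9 and the overlapping genes were named after their values were seen. The genes and lists were chosen with earlier results of these data known.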

Additional observations from a re-analysis of the deposited data

How the results depend on the processing

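No gene of the 9 was 2-fold apart with limits of 1 or 20 CPM, without factors, with DESeq2 size factors, with 0.1 or 2 CPM added, or with the GC trend subtracted. The share over all genes is given only for the main setting, 9.53% of 12218 genes. At such a share, a count of 0 of 9 does not set these genes apart. Intervals that left out 0 numbered 3 with TMM factors, 2 without factors (Nlgn3 no longer), 4 with DESeq2 size factors (Nlgn2 added) and 5 with the GC trend subtracted (Nlgn2 and Lrrtm2 added). The share over all genes was computed only with TMM factors, where 18.6% of 12218 genes had an interval above 0 and 17.9% below. The rank by length-scaled level differed from that by FPKM in 5 genes with the longest transcript and in 9 with the union of exons as divisor, and in 0 genes in either library alone. With FPKM in place of CPM sums, the neuroligin share was 41.4% in place of 47.3% and the LRRTM share 14.5% in place of 11.7%. In each library alone, the neurexin share ranged from 37.6% to 44.4%, the neuroligin share from 43.9% to 50.7% and the LRRTM share from 11.6% to 11.7%. Partner genes detected numbered 51 at 1 CPM in place of 47. Totals over protein-coding genes moved all 9 CPM levels by more than the spread between libraries, and TMM-scaled totals moved 1. Some ratios whose interval included 0 changed sign: without factors, Nrxn3, Nlgn2, Lrrtm2 and Lrrtm4 were at -0.08, -0.06, -0.07 and -0.12, and with the GC trend subtracted, Nrxn3, Lrrtm2 and Lrrtm4 were at -0.02, -0.32 and -0.37. No paired analysis was possible because 1 group was analysed. Depth limits Lrrtm3 and Lrrtm4 most, whose ratio intervals are the widest.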

Other observations

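The introns of Lrrtm4 hold 8 annotated genes of the annotation type TEC, a class of transcribed regions awaiting experimental evidence, on the same strand. They share no exon base with Lrrtm4 and had 85 counts in the shallower and 67 in the deeper library, which is 87.6% and 57.8% of the counts of Lrrtm4 itself. These are raw counts over unlike lengths, so the percentages do not compare levels. The exons of the 8 TEC genes cover 20931 bases, against 6147 bases for the union of Lrrtm4 exons. The introns of Nrxn3, the longest of the genes, hold 2 such genes with 15 and 25 counts, or 1.81% and 2.46% of the counts of Nrxn3. The other 7 genes hold none.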
